A study of Rattus norvegicus with 6 samples.

Results

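The genes of mitosis, the spindle checkpoint and the kinetochore were examined in c-kit+ marrow cells from rats treated with phenylhydrazine (PHZ), an oxidant of red cells that brings on haemolysis. The set was a list of 45 genes, taken by symbol. Of these, 41 were listed by symbol among the 17172 genes and loci of the files, all 41 passed the filter on low counts, and 4 (Cenph, Spc24, Cenpe and Anln) were not listed under their symbols. The animals were 6 ACI rats of 6 to 8 weeks, 3 injected intraperitoneally with 100 mg/kg PHZ and 3 with phosphate-buffered saline (PBS), each group holding 2 rats labelled female and 1 labelled male. Cells were taken from the hind legs 36 h after the injection, c-kit+ cells were selected with a biotin-labelled antibody and streptavidin particles, and poly(A) RNA was sequenced, with 1 library per rat. All 6 libraries are of the same enriched but mixed population, c-kit being the receptor of stem cell factor on stem cells, progenitors and early erythroid cells.

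Mitosis begins when cyclin B with its kinase drives chromosomes to condense and the spindle to form. Kinetochores, protein assemblies built on centromeric chromatin, then attach each chromosome to spindle microtubules, and the spindle checkpoint holds the anaphase-promoting complex in check until all are attached. Most of these transcripts peak in G2 and M phase. Early erythroid precursors are among the fast-dividing cells of the marrow.

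The libraries held 13196249 to 19492793 expected counts (reads assigned to a gene by an estimate that need not be whole), and 13547 genes were tested. Levels below are CPM, counts relative to the library's total after TMM scaling in edgeR, unless FPKM (fragments scaled to gene length and library size) is named, and a gene is called where its edgeR adjusted p is under 0.05. In 3 libraries Y-linked transcripts went against the sex label: PBS replicate 1 and PHZ replicate 3, labelled female, had 61.2 and 55.6 CPM of them, and PBS replicate 2, labelled male, had 0.0615 CPM. These Y-linked values are relative to the total of all counts, without TMM scaling. Kit itself stood at 54.9, 63.9 and 51.7 CPM in the PBS libraries and 33.9, 55.1 and 71.6 CPM in the PHZ libraries, groups that overlap, and Cd34 did not pass the filter. Of 14 B lineage markers 7 fell and none rose, and of 13 T and NK markers 8 fell and none rose, where 4.17% of all genes tested fell and 8.99% rose. The summed B lineage level was 945 to 1161 CPM in PBS and 417 to 509.95 CPM in PHZ libraries. Of 14 erythroid markers 8 rose, among them Klf1 (2.79-fold) and Tfrc (3.35-fold), 2 examples picked after their values had been seen, while their sum, which is mostly globin, overlapped between groups (93049 to 204808 CPM in PBS, 84353 to 244300 CPM in PHZ). Of 14 neutrophil markers tested 1 fell, and their sum was 13904 to 28248 CPM in PBS and 6305 to 12635 CPM in PHZ libraries. Of 7 stem and early progenitor markers tested 3 fell, and of 8 megakaryocyte markers 2 fell. Of 13 monocyte and macrophage markers edgeR called 0 (2 lower at an unadjusted p under 0.05), and PBS replicate 1 stood apart in several of them, picked after their values had been seen: C1qa was at 711, 193 and 192 CPM in the PBS libraries and 245, 235 and 224 CPM in the PHZ libraries, and Cd163 at 628, 162 and 219 CPM in the PBS libraries and 315, 262 and 268 CPM in the PHZ libraries. PBS replicate 1 also stood apart in some markers of other lists, picked in the same way. Mpo was at 286, 1710 and 1662 CPM in the PBS libraries and Rag1 at 8.69, 43.6 and 41 CPM. In other markers it did not, as in Mmp8 at 2408, 2559 and 2367 CPM. No marker of these lists was at 0 in every library. The part of these cell types in the results below was not tested, and in such bulk samples a change in the number of cells of a type and a change in RNA per cell cannot be told apart.

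The mitotic genes stood higher in PHZ rats as a group. All 41 had a higher estimate in PHZ, against 47.6% of all genes tested. Of the 41, 25 rose, none fell and 16 were not called, where 8.99% of all genes tested rose and 4.17% fell. At an unadjusted p under 0.05, 38 were higher, against 18.8% of all genes. The median log2 fold change of the 41 was 0.77, a 1.70-fold difference, against -0.04 over all genes. The differences were modest in size, from 1.24-fold (Aspm) to 2.48-fold (Mybl2), and 7 of the 41 reached 2-fold by estimate, against 4.93% of all genes. In 38 of the 41 the 3 PHZ values lay above the 3 PBS values, as they did in 22.5% of all genes, and the exceptions were Foxm1, Cdc25b and Cdc25c. The summed level of the 41 genes was 5481, 4999 and 5195 CPM in the PBS libraries and 8028, 9877 and 8621 CPM in the PHZ libraries.

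**Figure D1:**
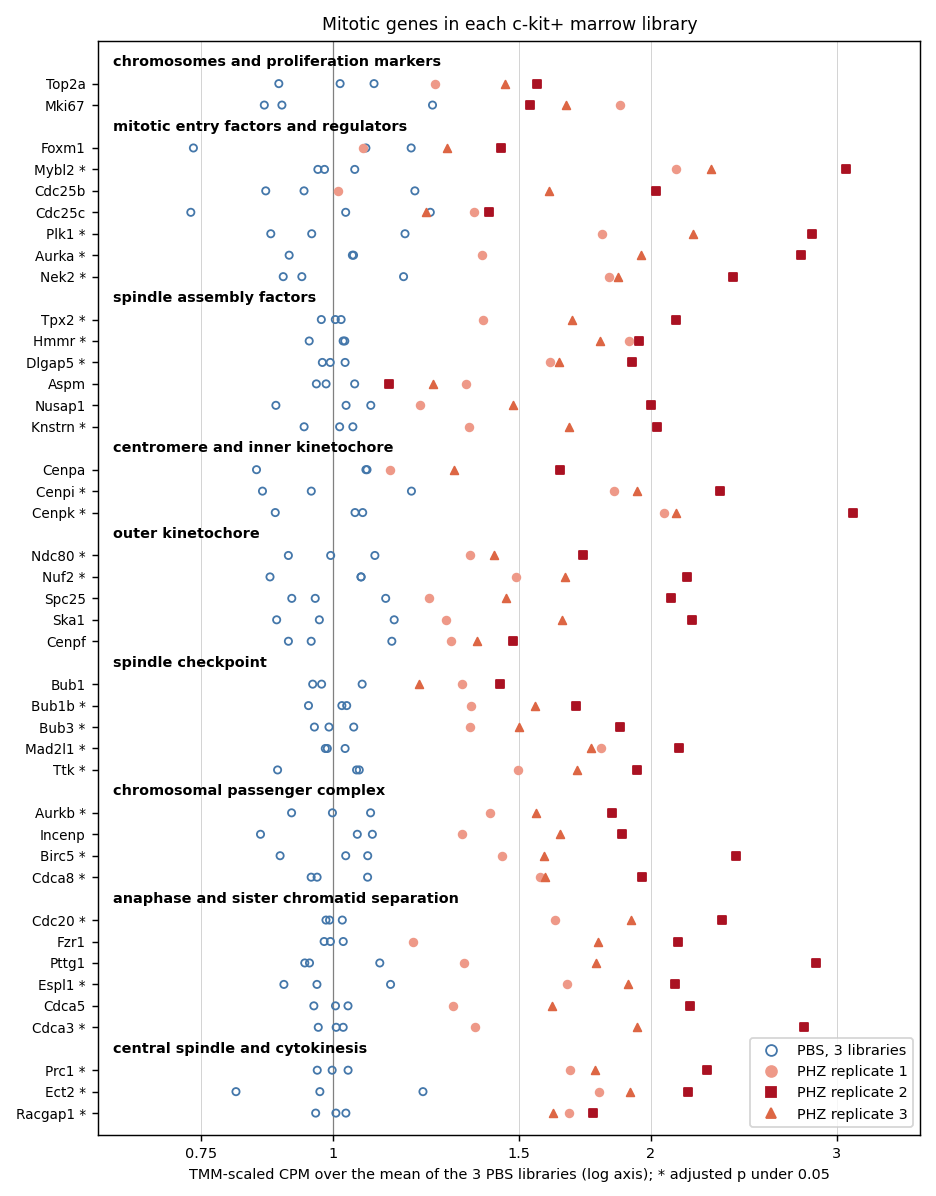
Level of each of the 41 listed mitotic genes in each library (horizontal axis: TMM-scaled CPM divided by the mean of the 3 PBS libraries, log scale), grouped by role. Open circles are the PBS libraries, filled symbols the PHZ libraries, and an asterisk marks an edgeR adjusted p under 0.05. PHZ replicate 2 is the rightmost symbol in 39 of 41 genes.

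The 3 PHZ rats did not stand equally high. PHZ replicate 2 was the highest of the PHZ libraries in 39 of 41 genes, while it was so in 35.1% of all genes tested. PHZ replicate 1 was the lowest in 34 of the 41, and the share of all genes in which it was lowest was not counted. The median over the 41 genes, relative to the PBS mean, was 1.39-fold in PHZ replicate 1, 2.03-fold in replicate 2 and 1.65-fold in replicate 3. The PBS rats lay close together, with a median coefficient of variation of 9.43% over the 41 genes, against 16.4% in PHZ (15.5% and 19.1% over all genes tested).

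The number of calls depended on single libraries. Without PBS replicate 2 edgeR called 0 of the 41 genes, as it called 0 of all genes (33 of the 41 at an unadjusted p under 0.05, against 13.9% of all genes), and likewise without PBS replicate 3 (0, with 35 at an unadjusted p under 0.05, against 13.6%). Without PHZ replicate 2 it called 8 (1.55% of all genes rose), and without PHZ replicate 3 it called 5 (2.68%). These 5 were Mybl2, Cenpk, Hmmr, Mad2l1 and Racgap1, all of which were also among the 8. Dropping the 3 libraries at odds with their labelled sex keeps 1 PBS and 2 PHZ rats, the lone PBS rat being assumed to vary like the PHZ pair, and edgeR then called 0 (9 at an unadjusted p under 0.05, against 4.78% of all genes). With the presence of Y-linked transcripts as a covariate edgeR called 8 (2.52% of all genes). In other fits the count of the 41 beside the share of all genes that rose was 17 and 7.43% without PBS replicate 1, 33 and 8.78% without PHZ replicate 1, 20 and 7.02% with upper-quartile scaling, and 21 and 7.94% with relative log expression scaling. It was 36 and 14.1% with DESeq2, 24 and 6.45% with no filter, 26 and 8.99% with globin genes left out, 19 and 5.06% with sex as labelled as a covariate, and 27 in limma with either pseudocount (6.72% and 6.59%). All 41 estimates were above 0 in each of these fits.

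The transcriptional and kinase regulators of mitotic entry held both the largest and some of the smallest differences. Mybl2 (gene ID 296344), the B-MYB factor that joins the MuvB complex to switch on G2/M genes, stood at 111, 119 and 109.7 CPM in the PBS libraries and 239.6, 346 and 258 CPM in the PHZ libraries. It rose 2.48-fold, the largest estimate of the 41 (log2 fold change 1.31 ± 0.17 SE, edgeR adjusted p = 0.0169). Foxm1 (gene ID 58921), the forkhead factor that acts on the same kind of G2/M promoters after B-MYB, stood at 59.9, 96.3 and 87.3 CPM in the PBS libraries and 86.6, 117 and 104 CPM in the PHZ libraries. Its groups overlapped, PHZ replicate 1 lying below PBS replicates 2 and 3, and it was not called (log2 fold change 0.34 ± 0.21 SE, edgeR adjusted p = 0.296). Foxm1 was called in 0 of the 18 other fits, whereas Mybl2 was called in 14. Those 14 were all the other fits in which any gene was called.

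Plk1 (gene ID 25515), the Polo-like kinase of mitotic entry and spindle assembly, stood at 77.4, 104 and 84.6 CPM in the PBS libraries and 159, 252 and 194 CPM in the PHZ libraries. Every PHZ value was above every PBS value, and Plk1 rose 2.28-fold (log2 fold change 1.19 ± 0.21 SE, edgeR adjusted p = 0.0234). Aurka, the centrosomal Aurora kinase that activates Plk1, stood at 101, 116 and 116 CPM in the PBS libraries and 154, 308 and 217 CPM in the PHZ libraries. It rose 2.04-fold, with every PHZ value above the PBS values and PHZ replicate 2 the highest (log2 fold change 1.03 ± 0.26 SE, edgeR adjusted p = 0.046). Nek2, a kinase of centrosome separation, rose 2.03-fold (log2 fold change 1.02 ± 0.17 SE, edgeR adjusted p = 0.0223). The CDC25 phosphatases, which remove the inhibitory phosphates of the cyclin-dependent kinases, were not called. Cdc25b stood at 324, 298 and 413 CPM in the PBS libraries and 349, 698 and 553 CPM in the PHZ libraries, and PHZ replicate 1 lay within the PBS range (log2 fold change 0.63 ± 0.28 SE, edgeR adjusted p = 0.16). Cdc25c, the least abundant of the 41 genes per length, stood at 10.3, 17.4 and 14.5 CPM in the PBS libraries and 19.2, 19.8 and 17.2 CPM in the PHZ libraries (log2 fold change 0.41 ± 0.22 SE, edgeR adjusted p = 0.223).

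**Figure D2:**
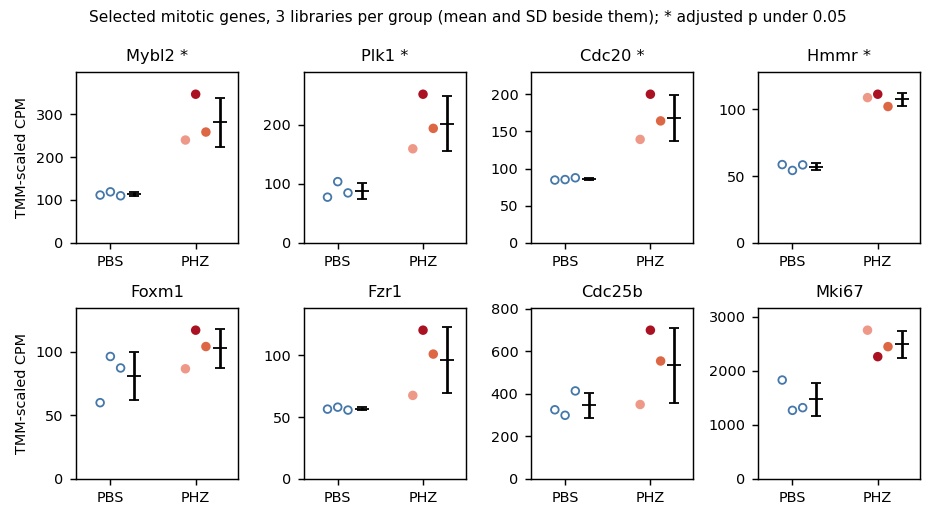
TMM-scaled CPM (vertical axes, from 0) of 8 mitotic genes in the 3 PBS libraries (open) and 3 PHZ libraries (filled), with the mean and SD of each group beside the points. The groups are apart for Mybl2, Plk1, Cdc20, Hmmr, Fzr1 and Mki67 and overlap for Foxm1 and Cdc25b; asterisks mark edgeR adjusted p under 0.05.

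Promoters of G2/M genes often hold a cell cycle homology region (CHR), bound by the MuvB complex, together with CCAAT boxes, bound by NF-Y. The letters TTTGAA and TTCGAA (for the CHR) and CCAAT were therefore looked for on both strands in the 250 bases before each gene's start in RefSeq (assembly GRCr8), where 40 of the 45 genes have an entry. Foxm1, Tpx2, Aurkb, Incenp and Racgap1 have none. CHR letters were present in 20 of the 40 (50%), against 17.4% of 24206 promoters of genes with a single start and 12.1% of the 8334 among them whose genes were tested. CCAAT was present in 27 of the 40 (67.5%), against 34.4% and 36.1%, and both in 16 (40%), against 6.27% and 4.72%. Among listed genes, CHR letters were found in 11 of the 22 promoters of called genes and 8 of the 14 of genes not called. With the 50 bases after the start added, 29 of the 40 had CHR letters (72.5%), against 19.6% of all. Matches of the motifs may overlap one another, and a match of letters is a description of the sequence, not a site shown to be bound.

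Below are the 120 bases before the start for the B-MYB gene and 2 of the genes it is known to act on, with CHR letters, CCAAT and the E2F-type letters GGCGGGA (either strand) in capitals. GGCGGGA was added after the sequence of Mybl2 had been seen, and it was present in 10 of the 40 promoters (25%) and in 10.1% of all and 18.2% of tested genes. Plk1 lies at chr1:186147538-186147657 on the + strand, Cdc20 at chr5:137255800-137255919 on the - strand and Mybl2 at chr3:172124685-172124804 on the + strand.
Mybl2: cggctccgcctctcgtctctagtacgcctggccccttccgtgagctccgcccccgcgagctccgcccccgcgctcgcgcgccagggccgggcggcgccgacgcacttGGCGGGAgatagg
Plk1: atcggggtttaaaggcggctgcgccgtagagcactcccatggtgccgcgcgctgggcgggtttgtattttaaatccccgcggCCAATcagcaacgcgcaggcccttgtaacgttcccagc
Cdc20: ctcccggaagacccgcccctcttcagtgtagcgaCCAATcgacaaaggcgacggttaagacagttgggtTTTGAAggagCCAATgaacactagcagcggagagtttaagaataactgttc
Cdc20 had TTTGAA starting 51 bases before the start, between CCAAT at 86 and 41 bases. Plk1 had CCAAT 38 bases before the start and its TTTGAA 7 bases into the transcript, outside the printed window. Mybl2 had neither, and GGCGGGA at 13 bases.

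Spindle assembly factors followed, of which 4 of 6 rose. Beside this count and those of the roles below stands the share of all genes tested that rose, 8.99%. Hmmr (gene ID 25460), a microtubule-binding protein of spindle poles, stood at 58.6, 54.2 and 58.4 CPM in the PBS libraries and 109, 111 and 102 CPM in the PHZ libraries. The values within each group were nearly equal, and Hmmr had the smallest p of the 41, rising 1.88-fold (log2 fold change 0.91 ± 0.11 SE, edgeR adjusted p = 0.0154). Tpx2, which brings Aurora A to the spindle, rose 1.73-fold, its mean going from 247 ± 5.45 CPM to 426 ± 89.7 CPM with the SD of 3 rats (adjusted p in edgeR = 0.0378). Dlgap5, a stabiliser of kinetochore fibres, rose 1.72-fold (log2 fold change 0.78 ± 0.13 SE, edgeR adjusted p = 0.0215), and Knstrn, a kinetochore protein that partners astrin on the spindle, rose 1.68-fold. Nusap1, a microtubule-bundling protein, was 1.56-fold higher by estimate and not called (edgeR adjusted p = 0.0825). Aspm, the spindle pole protein mutated in primary microcephaly, had the smallest difference of the 41, at 128, 117 and 120.01 CPM in the PBS libraries and 163, 138 and 152 CPM in the PHZ libraries (log2 fold change 0.31 ± 0.12 SE, edgeR adjusted p = 0.128). The 3 PHZ values of Aspm still lay above the PBS values, and unlike most members it was lowest in PHZ replicate 2.

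At the centromere, 2 of the 3 listed genes rose. Cenpk, a subunit of the inner kinetochore network that links centromeric chromatin to the microtubule-binding complexes, stood at 14.9, 15.1 and 12.5 CPM in the PBS libraries and 29.2, 44.1 and 30.0 CPM in the PHZ libraries. It rose 2.43-fold, the second largest estimate of the 41 (log2 fold change 1.28 ± 0.21 SE, edgeR adjusted p = 0.0215). Cenpi, of the same network, rose 2.04-fold, its mean going from 23.7 ± 4.02 CPM to 48.4 ± 6.07 CPM with the SD of 3 rats (adjusted p in edgeR = 0.0223). Cenpa, the histone H3 variant that marks centromeres, stood at 44.2, 56.1 and 56.2 CPM in the PBS libraries and 59, 85.6 and 68 CPM in the PHZ libraries. Its PHZ values were above its PBS values by a small gap, and it was not called here or in any of the 18 other fits (log2 fold change 0.44 ± 0.18 SE, edgeR adjusted p = 0.14). Some of those 18 fits called no gene at all.

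In the outer kinetochore, 2 of 5 listed genes rose, both from the NDC80 complex that grips microtubules. Nuf2 rose 1.77-fold (log2 fold change 0.82 ± 0.18 SE, edgeR adjusted p = 0.0338) and its partner Ndc80 1.5-fold (log2 fold change 0.58 ± 0.15 SE, edgeR adjusted p = 0.0461). Their partner Spc25 stood at 29, 27.6 and 33.9 CPM in the PBS libraries and 37.2, 63.1 and 44 CPM in the PHZ libraries, with a wide spread among PHZ rats, and was not called (edgeR adjusted p = 0.0831). Ska1, of the complex that follows depolymerising microtubules, was 1.7-fold higher by estimate (edgeR adjusted p = 0.0621), and the large corona protein gene Cenpf 1.38-fold (edgeR adjusted p = 0.0685), neither called.

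Of the spindle checkpoint genes 4 of 5 rose. Mad2l1 (gene ID 297176), which binds CDC20 to halt anaphase, stood at 30.5, 29.3 and 29.2 CPM in the PBS libraries and 53.3, 63.2 and 52.1 CPM in the PHZ libraries. It was among the steadiest of the set, and rose 1.89-fold (log2 fold change 0.92 ± 0.13 SE, edgeR adjusted p = 0.018). Ttk, the MPS1 kinase that starts checkpoint signalling, rose 1.71-fold (log2 fold change 0.78 ± 0.15 SE, edgeR adjusted p = 0.0267), Bub3, the scaffold of the BUB kinases, 1.57-fold (log2 fold change 0.65 ± 0.15 SE, edgeR adjusted p = 0.0392), and Bub1b, the pseudokinase BUBR1, 1.53-fold (log2 fold change 0.62 ± 0.13 SE, edgeR adjusted p = 0.0316). Bub1, the kinase that marks centromeric histone H2A, was not called, at 118, 116 and 129 CPM in the PBS libraries and 161, 175 and 147 CPM in the PHZ libraries (log2 fold change 0.41 ± 0.12 SE, edgeR adjusted p = 0.0745).

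The chromosomal passenger complex corrects faulty attachments and later directs cytokinesis, and 3 of its 4 genes rose. Birc5 (survivin) stood at 48.7, 51.1 and 42.2 CPM in the PBS libraries and 68.4, 114 and 74.9 CPM in the PHZ libraries and rose 1.81-fold, with PHZ replicate 2 well above the others (log2 fold change 0.86 ± 0.22 SE, edgeR adjusted p = 0.0478). Cdca8 (borealin) rose 1.71-fold (log2 fold change 0.77 ± 0.14 SE, edgeR adjusted p = 0.0238) and the kinase gene Aurkb 1.6-fold (log2 fold change 0.68 ± 0.14 SE, edgeR adjusted p = 0.033). Incenp, the scaffold of the complex, was just outside the threshold, at 148, 182 and 188 CPM in the PBS libraries and 229, 325 and 284 CPM in the PHZ libraries (log2 fold change 0.69 ± 0.18 SE, edgeR adjusted p = 0.0504).

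Among genes of anaphase and of sister chromatid cohesion, with Cdca3 grouped beside them, 3 of 6 rose. Cdc20 (gene ID 64515), the activator of the anaphase-promoting complex in mitosis, stood at 84.5, 85.2 and 87.6 CPM in the PBS libraries and 139, 200.1 and 164 CPM in the PHZ libraries. The PBS values differed by little, and Cdc20 rose 1.96-fold (log2 fold change 0.97 ± 0.16 SE, edgeR adjusted p = 0.0218). Fzr1, the CDH1 activator that takes over at mitotic exit and in G1, stood at 56.4, 58 and 55.7 CPM in the PBS libraries and 67.6, 120.5 and 101 CPM in the PHZ libraries and was not called (log2 fold change 0.76 ± 0.21 SE, edgeR adjusted p = 0.0602). Espl1, separase, rose 1.89-fold (log2 fold change 0.92 ± 0.15 SE, edgeR adjusted p = 0.022). Pttg1, securin, the inhibitor of separase, stood at 109, 92.5 and 93.5 CPM in the PBS libraries and 131, 282 and 175 CPM in the PHZ libraries. PHZ replicate 2 held more than replicates 1 and 3 by a wide margin, and with that spread Pttg1 was not called (log2 fold change 0.99 ± 0.28 SE, edgeR adjusted p = 0.062). Cdca3, a trigger of mitotic entry, rose 2.03-fold (log2 fold change 1.02 ± 0.26 SE, edgeR adjusted p = 0.0478), and Cdca5 (sororin), which protects cohesin, was 1.7-fold higher by estimate and not called (edgeR adjusted p = 0.0523).

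All 3 listed genes of the central spindle and cytokinesis rose. Racgap1 (gene ID 315298), of the centralspindlin complex, stood at 57.3, 56.1 and 53.6 CPM in the PBS libraries and 93.1, 98.2 and 90.0 CPM in the PHZ libraries. Both groups were tight, and it rose 1.68-fold (log2 fold change 0.75 ± 0.11 SE, edgeR adjusted p = 0.0187). Prc1, which bundles the antiparallel microtubules of the midzone, rose 1.9-fold, its mean going from 159 ± 5.33 CPM to 302 ± 49.6 CPM with the SD of 3 rats (adjusted p in edgeR = 0.0222). Ect2, the exchange factor that activates RhoA at the cleavage furrow, rose 1.96-fold (log2 fold change 0.97 ± 0.18 SE, edgeR adjusted p = 0.0249).

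The general proliferation markers were not called. Mki67, the coat protein of mitotic chromosomes, stood at 1831, 1269 and 1319 CPM in the PBS libraries and 2756, 2264 and 2449.8 CPM in the PHZ libraries, and PBS replicate 1 was the highest of the PBS rats (log2 fold change 0.76 ± 0.20 SE, edgeR adjusted p = 0.0539). Without PBS replicate 1 Mki67 was called, as in 3 other of the 18 fits. Top2a, the topoisomerase that untangles sister chromatids, stood at 341, 390.2 and 420.1 CPM in the PBS libraries and 480.3, 599 and 559 CPM in the PHZ libraries (log2 fold change 0.51 ± 0.15 SE, edgeR adjusted p = 0.0721). The PHZ values of both genes lay above their PBS values.

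Per length, the 41 genes spanned a wide range of levels. Mki67 had the highest mean in PBS libraries, 149 ± 34.9 FPKM, and Pttg1 145 ± 18.9 FPKM (mean ± SD of 3 rats), values closer to each other than their SDs. Cdc25b (114 ± 13 FPKM), Tpx2 (83.7 ± 4.88) and Cdca3 (81.5 ± 6.43) came next, and the last pair do not differ beyond their SDs. At the other end were Cdc25c at 4.72 ± 0.939 FPKM, Cenpi at 7.67 ± 1.44 and Ttk at 10.4 ± 0.968. The median over the 41 genes was 25.9 FPKM in PBS and 45.5 FPKM in PHZ, and 78.7% of all tested genes had a PBS mean below that PBS median.

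The 4 genes not listed by symbol were represented by loci that the authors numbered as additional and whose deposited protein descriptions name them, a match made after their values had been seen. The locus described as Cenph, an inner kinetochore subunit, stood at 27.8, 29.6 and 30.3 CPM in PBS and 46.5, 87.9 and 58.0 CPM in PHZ libraries, and rose 2.19-fold (edgeR adjusted p = 0.0325). The locus described as Spc24, of the NDC80 complex, was 1.48-fold higher by estimate and not called (edgeR adjusted p = 0.128). Both loci described as anillin, the scaffold of the contractile ring, rose, 2.27-fold (edgeR adjusted p = 0.028) and 1.66-fold (edgeR adjusted p = 0.0363). For Cenpe, the kinesin that moves chromosomes to the spindle equator, there were 4 loci, between which the counts were divided unevenly from rat to rat. The most abundant held 85.6 CPM in PBS replicate 1 and 42.1 CPM in PBS replicate 3, and another held 0.243 and 31.1 CPM, and none of the 3 that were tested was called. The locus not tested held 3.95 FPKM in PBS replicate 1 and 0 in every other library. The sum of all 4 loci was steady, at 118, 109 and 113 CPM in PBS and 167, 171 and 178 CPM in PHZ libraries (ratio of means 1.52). Values of single loci that share a description are uncertain, since how reads were divided among them is not given in the sources, and the sums were not tested.

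In 4 lists of 119 further genes, 101 were listed and tested, of which 47 rose, none fell and 54 were not called, where 8.99% of all genes tested rose and 4.17% fell. Their median log2 fold change was 0.61. Of 25 centromere and kinetochore genes 16 rose, with the smallest p for Cenpn (2.09-fold), Cenpu (2.02-fold) and Cenpq (2.32-fold), all of the inner kinetochore network. Of 20 checkpoint and anaphase-promoting complex genes 8 rose, among them the complex's subunit genes Cdc27 (1.61-fold), Cdc16 (1.82-fold) and Anapc5 (1.57-fold). Of 17 further mitotic entry genes 8 rose, with the smallest p for the cyclin genes Ccnb1 (2.55-fold) and Ccna2 (2.11-fold) and for Gtse1 (1.82-fold). Of 39 spindle and cytokinesis genes 15 rose, among them Rcc1 (1.98-fold), the exchange factor of Ran, and the augmin subunit genes Haus7 (2.19-fold) and Haus1 (1.88-fold). The count over the 4 lists was 23 without PBS replicate 1 (7.43% of all genes rose) and 51 without PHZ replicate 1 (8.78%). It was 8 without PHZ replicate 2 (1.55%) and 6 without PHZ replicate 3 (2.68%). Without PBS replicate 2 or 3 edgeR called 0 of them and 0 of all genes (63 and 64 of them at an unadjusted p under 0.05, against 13.9% and 13.6% of all genes).

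**Figure D3:**
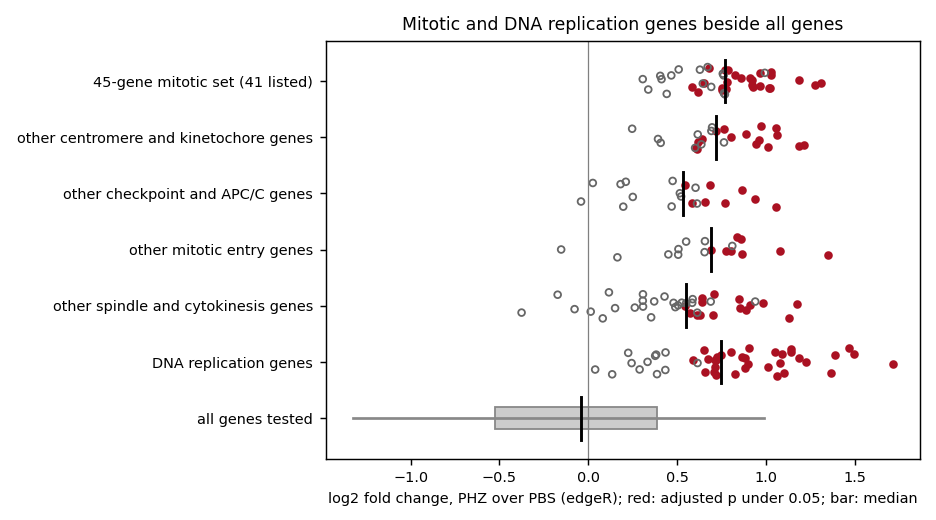
Log2 fold change, PHZ over PBS, of the 41 mitotic genes, 4 lists of other mitotic genes and DNA replication genes (1 point per gene, red where the edgeR adjusted p is under 0.05, black bar at the median), beside all 13547 genes tested (box: middle 50%, line: 5th to 95th percentile). The medians of the lists run from 0.53 to 0.77, and that of all genes is -0.04.

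DNA replication genes, which act in the S phase before mitosis, gave a similar median. Of 45 listed genes 33 rose and none fell, where 8.99% of all genes tested rose and 4.17% fell. The median log2 fold change of the 45 was 0.75. The estimate reached 2-fold in 33.3% of the 45, where 7 of the 41 mitotic genes and 4.93% of all genes tested did. The smallest p were those of Orc1 (3.29-fold), Mcm6 (2.58-fold) and Mcm2 (2.15-fold), which license replication origins. The difference between the lists was not tested. The count for replication genes was 0 without PBS replicate 2 or 3 (35 and 34 at an unadjusted p under 0.05, against 13.9% and 13.6% of all genes). It was 12 without PHZ replicate 2 or 3 (1.55% and 2.68% of all genes rose). Without PBS replicate 1 it was 24 (7.43%) and without PHZ replicate 1 it was 32 (8.78%).

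The difference in PHZ replicate 2 varied with gene length. Among the 14 mitotic genes under 2000 bases its median was 2.16-fold over the PBS mean, and among the 11 of 4000 bases or more it was 1.57-fold. The same held over all genes tested, with medians of 1.11-fold under 2000 bases and 0.761-fold at 4000 bases or more, while in PHZ replicate 3 these were 1.01-fold and 0.941-fold and in replicate 1 1.06-fold and 0.932-fold. Spearman's rho between length and the log2 difference over the 41 genes was -0.453 in PHZ replicate 2, -0.00488 in replicate 1 and -0.155 in replicate 3, a description across genes that share a library. With each library's trend with length removed, 27 of the 41 rose (9.7% of all genes), 24 of the 25 genes above with Aspm, Incenp and Mki67 added, and Cdca3 was no longer called.

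**Figure D4:**
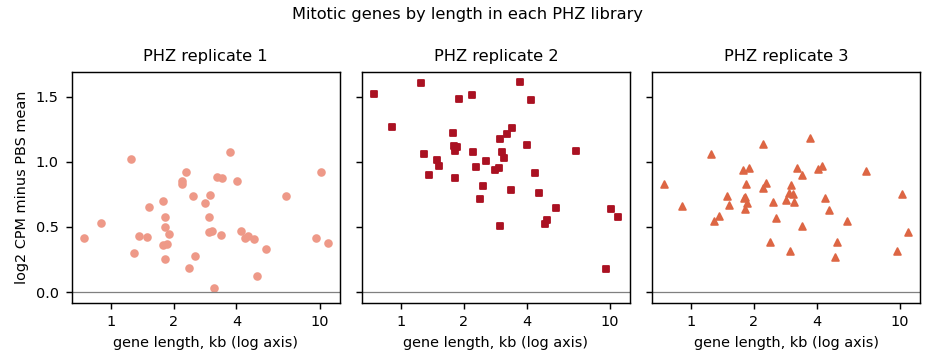
Log2 CPM minus the mean of the PBS libraries for the 41 mitotic genes (vertical axis) against gene length in kb (log axis), 1 panel per PHZ library. In PHZ replicate 2 the 11 genes of 4000 bases or more had a median of 1.57-fold and the 14 under 2000 bases one of 2.16-fold, with single genes scattered around both.

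In the authors' deposited table, which is built on the group means of FPKM, 3 of the 41 genes were marked as up and none as down (3.18% of all its genes were marked up). In the authors' deposited table these 3 had log2 ratios of 1.24 (Mybl2), 1.19 (Cenpk) and 1.11 (Plk1), and the other 38 ran from 0.27 to 0.97. Every gene marked up in the authors' deposited table had a log2 ratio of at least 1.00.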

How the data were processed

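Bulk poly(A) RNA-seq of c-kit+ marrow cells from 6 rats (3 PBS, 3 PHZ) was analysed. The authors deposited, per the file headers, expected counts (estimated reads per gene, not scaled) and FPKM for each library, and a comparison table with mean FPKM, a log2 ratio and a Probability score. The submitters' processing notes name HISAT, GATK, RSEM and the build rn6, with no role or version, and whether counting used strand is not stated there. A gene that a library's file does not list was set to 0.

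Expected counts were rounded to whole numbers. Genes were filtered with filterByExpr, scaled by TMM and fitted with glmQLFit (robust) and glmQLFTest in edgeR 4.0.16 (R 4.3.3), with 4 residual degrees of freedom. P-values were adjusted by Benjamini-Hochberg over all 13547 genes tested and called under 0.05. Standard errors are the log2 fold change divided by the square root of F. The procedure was tested on counts simulated from the fitted model with changes of 2-fold or more. Most of the 41 genes had smaller estimates, which that test did not cover. A count of 0 allows up to 3 counts, 0.154 to 0.227 CPM without TMM scaling, for counting error only. Replicates of a group differed by 50.7 to 185 times the sampling variance per gene (chi-square per degree of freedom), so none were merged. Alternatives were other scalings, DESeq2 1.42.0, no filter, a replicate block, covariates, globin genes left out, limma 3.58.1 on log2(FPKM + 0.5) and log2(FPKM + 0.1), each library left out and, chosen after seeing the data, sex-label checks, a correction for gene length and a promoter window reaching past the start.

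The genes and lists were chosen with earlier results of these data known. All 45 genes are named, with the 3 called genes of smallest p from each further list. Promoters of Plk1 and Cdc20 were chosen by name and that of Mybl2 because it stood apart.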

Additional observations from a re-analysis of the deposited data

How the results depend on the processing

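The direction was the same in all 18 alternatives for each of the 41 mitotic genes, the smallest log2 fold change being 0.16, but the number of calls was not stable. Of 738 gene-by-alternative results, 528 were on the same side of the threshold, 181 were no longer called and 29 became called. Where edgeR called 0 of all genes, as with the replicate block and without PBS replicate 2 or 3, these labels were fixed in advance. Each of these 3 fits gave 25 results no longer called and 16 on the same side, which says nothing about single genes. The labels of the fit without the 3 libraries at odds with their labelled sex were fixed in the same way. They are counted in these totals too. The 25 calls lay between 19 and 36 under the other scalings, DESeq2 (36), no filter, sex as labelled, globin genes left out, limma and the length correction. Leaving out each library in turn gave 0 to 33 called mitotic genes, 0 to 51 other mitotic genes, 0 to 32 DNA replication genes and 0 to 1744 genes in all (1783 with all libraries). Without the 3 libraries at odds with their labelled sex, edgeR called 0 mitotic genes, 0 other mitotic, 0 replication and 0 of all genes (9, 7, 13 and 1480 at an unadjusted p under 0.05; DESeq2 on all libraries called 36 of the 41). With those transcripts as a covariate the counts were 8, 10, 12 and 435. With sex as labelled as a covariate 25 other mitotic genes and 928 of all genes were called. DESeq2 called 3421 of all genes, 56.7% of them higher, where edgeR had 68.3% higher. The causes were not tested.

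The replicate numbers were not treated as pairs, since same-numbered deviations correlated at 0.213, 0.0573 and 0.00452, and PHZ replicate 2 correlated best with PBS replicate 3. With the replicate block edgeR called 0 mitotic genes, 0 other mitotic genes, 0 replication genes and 0 of all genes (38, 77, 37 and 4641 at an unadjusted p under 0.05).

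The 3 animals per group and, for scarce genes, depth limit the precision. CHR letters were in 42.5% of the 40 promoters within 100 bases before the start, against 6.12% of all and 3.71% of tested genes. With 250 bases before and 50 after the start they were in 72.5%, against 19.6% and 13.7%. In that longer window they were in 16 of 22 promoters of called genes and 12 of 14 of genes not called.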

Other observations

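Ratios of FPKM between partner genes were picked with their values known and were not tested. The ratio of Mybl2 to Foxm1 was 2.51, 1.68 and 1.82 in the PBS libraries and 3.73, 4.25 and 3.32 in the PHZ libraries, without overlap. The ratio of Cdc20 to Fzr1, the activators of the anaphase-promoting complex in mitosis and at its exit, was 1.54, 1.51 and 1.61 in PBS and 2.11, 1.70 and 1.67 in PHZ libraries, also without overlap. For Aurka over Aurkb, Bub1b over Bub1, Cdc25b over Cdc25c and Pttg1 over Espl1 the groups overlapped. Securin to separase stood at 10.2, 10.7 and 10.3 in PBS and 8.42, 14.2 and 9.76 in PHZ libraries, each PHZ value outside the PBS range, on either side of it. Pttg1 is 743 bases long and Espl1 6902, and differences in PHZ replicate 2 varied with gene length. The part of length in this ratio was not tested.

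Of the 101 other mitotic genes 5 had a lower estimate in PHZ (Anapc4, Mybl1, Cep55, Ndel1 and Pimreg, named after their values were seen), and none of the 5 was called.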
